A study of Rattus norvegicus with 18 samples.

Results

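Ccnd1 and Myc are 2 of the 27654 genes in a count table from sorted rat beta cells, and they were followed across all 18 libraries. They were chosen by identifier, ENSRNOG00000020918 for Ccnd1 and ENSRNOG00000004500 for Myc, as genes known to push cells through the G1 phase. Both passed the filter on low counts, as did 14920 genes in all. The deposited files hold identifiers only, so the pairing of these 2 identifiers with their symbols comes from the definition of the gene pair and could not be checked against a table of names.

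Beta cells came from pancreatic islets of old and young rats (Rattus norvegicus). All islets spent a night in RPMI1640 with 10% serum and 11.1 mM glucose and received 10 micromolar EdU, a thymidine analogue that is built into newly made DNA. The 4 groups were 4 old replicative, 4 old quiescent, 5 young replicative and 5 young quiescent libraries, drawn from 9 islet batches of 2 pooled rats, each batch giving a replicating and a quiescent sample. EdU aside, the labels give no drug or genetic change in any group. The labels and series text state neither the rats' strain and ages nor the sort gate and cell numbers, and with no gene names in the files the beta cell label could not be checked against marker genes.

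Cyclin D1, the product of Ccnd1, is a regulatory subunit that activates the kinases Cdk4 and Cdk6. These phosphorylate the retinoblastoma protein, which releases E2F factors and opens the way from G1 into S phase. Cyclin D1 protein is made in answer to growth factors in G1 and is degraded once DNA synthesis is under way. Myc is a short-lived transcription factor that binds E-box DNA as a dimer with Max and raises the output of genes for ribosome production, metabolism and cell cycle entry. In rodent islets, forced expression of cyclin D1 with Cdk4 or of Myc is known to drive beta cells into the cycle, and strong Myc activity in mouse beta cells is also known to cause cell death.

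Total counts per library ran from 2723660 to 14222719, with 2975086 to 8639541 in old replicative, 4639863 to 10365264 in old quiescent, 5439091 to 8242896 in young replicative and 2723660 to 14222719 in young quiescent libraries. Levels below are CPM, read counts relative to library size, with library sizes scaled by TMM, edgeR's correction for libraries whose RNA differs in make-up. The replicative libraries were less alike than the quiescent ones. The biological coefficient of variation over all genes was 1.29 in old replicative, 0.293 in old quiescent, 0.701 in young replicative and 0.347 in young quiescent libraries. Intervals on single libraries cover counting error only, and those on fold changes are not adjusted for the number of genes.

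Ccnd1 was lower in replicating than in quiescent beta cells of old islets. The 4 old replicative libraries, replicates 1 to 4, held 84.8, 42.9, 86.6 and 156 CPM. The 4 old quiescent libraries held 260.3, 264, 275 and 306 CPM. Every old replicative library lay below every old quiescent one, with replicate 2 the lowest and replicate 4 the highest of the replicating cells. Groups failed to overlap in this direction for 11.1% of all genes tested.

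The means were 92.7 ± 47.0 CPM in old replicative and 277 ± 20.8 CPM in old quiescent libraries (SD, n = 4 each). The log2 fold change was -1.58 (SE 0.273, 95% interval -2.14 to -1.01), which is 2.98-fold lower in replicating cells. It passed edgeR's quasi-likelihood test with Benjamini-Hochberg adjustment over all genes (adjusted p = 0.000562). That model of all 4 groups uses a spread averaged over groups, and the old replicative libraries varied most. Fitted on the old libraries alone, Ccnd1 passed by less (log2 fold change -1.49, edgeR adjusted p = 0.0385), where 4.41% of genes were called. In the 4-group model 13.8% of the 14920 genes tested were called in either direction. Of the genes tested 6.60% were called lower, so Ccnd1 was 1 of 985 such genes. Of all genes, 9.01% had a lower log2 fold change than Ccnd1, and the median gene stood at 0.01. In old islets the number of genes detected also ran lower in replicating cells, with 11859 to 17772 in replicative and 17448 to 19882 in quiescent libraries. In young islets the ranges were 14759 to 23683 in replicative and 19054 to 23879 in quiescent libraries, with no common direction. Young replicative replicates 1, 2 and 3, with 23683, 21315 and 22394 genes, lay within the quiescent range. Replicates 4 and 5, with 15462 and 14759, lay below it. The part of gene detection in the Ccnd1 difference was not tested. Nor was it tested for the young differences of either gene or for those between replicating cells of the ages. In bulk RNA of sorted cells, fewer cells with the transcript and less transcript per cell cannot be told apart.

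In young islets Ccnd1 was also at a lower level in replicating cells, by a smaller amount. The 5 young replicative libraries held 112, 143, 115, 122 and 123 CPM. The 5 young quiescent libraries held 178, 252, 206, 209 and 161 CPM. The groups did not overlap, but young replicative replicate 2 and young quiescent replicate 5 lay close together. A gap in this direction was seen for 2.64% of genes tested.

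Ccnd1 averaged 123 ± 12.3 CPM in young replicative and 201 ± 34.6 CPM in young quiescent libraries (SD, n = 5 each). The difference on the log2 scale was -0.71 (SE 0.240, 95% interval -1.21 to -0.21), or 1.64-fold lower. In the model of all 4 groups it missed the threshold (edgeR adjusted p = 0.184, unadjusted p = 0.00710), where 2.47% of genes were called. That model uses a spread averaged over all groups. Fitted on the 10 young libraries alone, with a log2 fold change of -0.69, Ccnd1 passed (edgeR adjusted p = 0.0144) where 6.06% of genes were called. It also passed in limma-voom with quality weights (log2 fold change -0.77, adjusted p = 0.000248), which called 19.7% of genes. It passed in the 4-group model without old replicative replicate 2 (-0.72, edgeR adjusted p = 0.0426, 2.68% of genes called) or without old replicative replicate 4 (-0.73, edgeR adjusted p = 0.0388, 2.67% called).

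**Figure D1:**
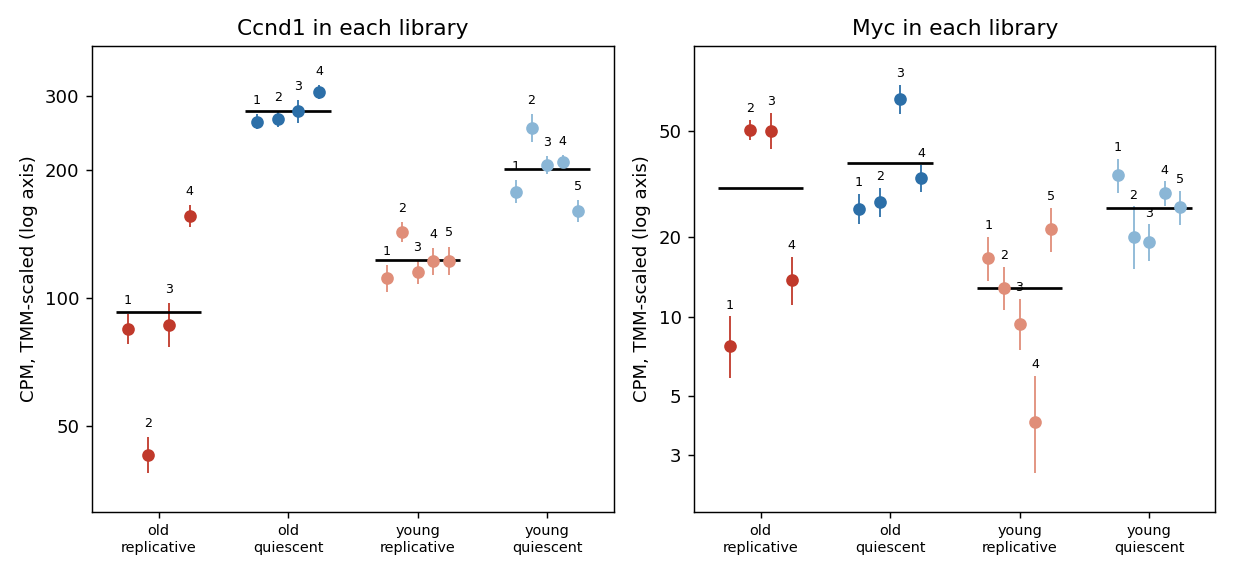
Level of Ccnd1 (left) and Myc (right) in each of the 18 libraries, in TMM-scaled CPM on log axes, by group. Points are libraries with their replicate number, vertical bars are 95% Poisson intervals for counting error and black lines are group means. All Ccnd1 points of replicating cells lie below the quiescent points of the same age, while Myc in old replicative libraries spans 7.72 to 50.5 CPM.

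The deposited log2 values, which are scaled by the authors' size factors, also left the groups apart for Ccnd1 in both comparisons of replicating with quiescent cells. They ran from 8.13 to 9.98 in old replicative and from 10.66 to 10.82 in old quiescent libraries. In young islets they ran from 9.56 to 9.87 in replicative and from 9.94 to 10.69 in quiescent libraries. Limma-trend on these values called Ccnd1 in old cells (log2 difference -1.59, adjusted p = 0.000553, 14.4% of genes called) and not in young cells (log2 difference -0.67, adjusted p = 0.261). The median gene stood at -0.35 in old cells on this scale, and relative to it Ccnd1 stood at -1.23.

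Whether the Ccnd1 difference was larger in old than in young islets was tested by the interaction of age and status. The interaction was -0.87 on the log2 scale (SE 0.359, 95% interval -1.61 to -0.13) and did not pass adjustment (edgeR adjusted p = 0.388, unadjusted p = 0.0240). In this test 0.0268% of genes were called. Without old replicative replicate 4, the library with the most Ccnd1 in its group, the interaction was -1.28 and just passed (edgeR adjusted p = 0.0483), where 0.825% of genes were called. It was -0.64 without old replicative replicate 2, the library with the least.

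Between ages, Ccnd1 gave no call in either state. In replicating cells it stood at 92.7 CPM in old and 123 CPM in young libraries, with a log2 fold change of -0.41 (SE 0.255, 95% interval -0.94 to 0.12, edgeR adjusted p = 0.365), in a comparison that called 7.16% of genes. The range of the old replicative libraries, 42.9 to 156 CPM, enclosed all 5 young replicative libraries. Leaving out old replicative replicate 4 gave -0.82, past the threshold (edgeR adjusted p = 0.0266) in a fit that called 10.3% of genes, and leaving out old replicative replicate 2 gave -0.18, so single libraries set this value.

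In quiescent cells Ccnd1 stood at 277 CPM in old and 201 CPM in young libraries, a log2 fold change of 0.46 (SE 0.252, 95% interval -0.06 to 0.98, edgeR adjusted p = 1.00), where 0.0268% of genes were called. All 4 old quiescent libraries lay above all 5 young quiescent ones, a gap seen in this direction for 2.63% of genes. With the authors' scaling the same groups overlapped, since the lowest old quiescent value was 10.66 and the highest young quiescent value 10.69. Limma-voom with quality weights put the difference past the threshold (log2 fold change 0.42, adjusted p = 0.0228), in a fit that called 10.5% of genes.

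By its mean level Ccnd1 was thus lowest in old replicative cells, followed by young replicative, young quiescent and old quiescent cells. Of the neighbours in that order, old and young replicative libraries overlapped. Young replicative libraries did not overlap young quiescent ones, and old quiescent libraries did not overlap young quiescent ones in CPM, but neither difference passed the 4-group test.

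**Figure D2:**
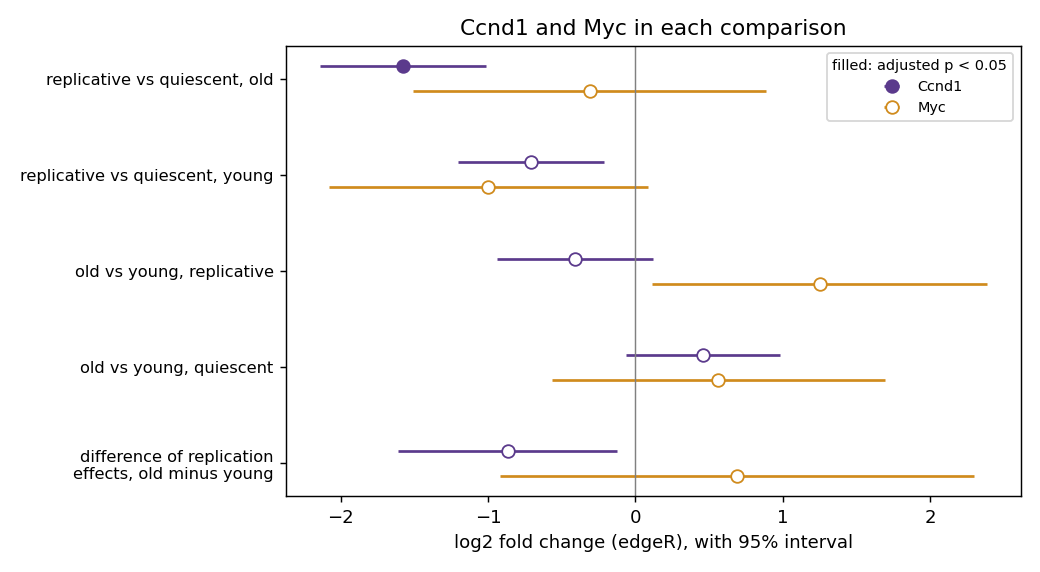
Log2 fold change of Ccnd1 and Myc in each comparison (horizontal axis), from the edgeR model of all 4 groups, with 95% intervals as bars. Filled points passed an adjusted p of 0.05, which Ccnd1 in old islets alone did at -1.58. The Myc intervals are the wider ones in every comparison.

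In the 4-group model Myc showed no change with replication beyond the spread between libraries. In old islets the replicative libraries, replicates 1 to 4, held 7.72, 50.5, 50.2 and 13.7 CPM. The old quiescent libraries held 25.4, 27.0, 66.0 and 33.2 CPM. Replicates 2 and 3 of the replicating cells were high and replicates 1 and 4 low, and the groups overlapped. Counting error was small beside this: old replicative replicate 1 rested on 57 reads, with an interval of 5.85 to 10.0 CPM, and replicate 2 on 484 reads, with an interval of 46.1 to 55.2 CPM.

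Myc averaged 30.5 ± 23.0 CPM in old replicative and 37.9 ± 19.0 CPM in old quiescent libraries (SD, n = 4 each). The log2 fold change was -0.31 (SE 0.578, 95% interval -1.51 to 0.89, edgeR adjusted p = 0.780). That interval runs from 0.352-fold to 1.85-fold, so at this spread a difference within it, in either direction, was not excluded. Without old quiescent replicate 3, the library with the most Myc, the value was 0.0705. Scaling by total counts alone gave 0.0219, but it moved the median gene to 0.30. Relative to the median gene Myc stood at -0.28 under total-count scaling and at -0.32 under TMM. Subtracting the median gene largely undoes a change of library sizes, so this likeness is no separate check.

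In young islets the Myc values were lower in replicating cells on average. The 5 young replicative libraries held 16.6, 12.8, 9.41, 4.02 and 21.3 CPM. The 5 young quiescent libraries held 34.0, 19.99, 19.0, 29.1 and 25.8 CPM. Of the replicating libraries, 4 lay below all quiescent ones and replicate 5 lay within their range. Replicate 4, the lowest, rested on 24 reads (interval 2.57 to 5.98 CPM).

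The means were 12.8 ± 6.62 CPM in young replicative and 25.6 ± 6.28 CPM in young quiescent libraries (SD, n = 5 each). The log2 fold change of Myc was -0.997 (SE 0.523, 95% interval -2.08 to 0.09) and did not pass (edgeR adjusted p = 0.668, unadjusted p = 0.0695). Of 28 other settings, limma-voom with quality weights was the only one that called it (log2 fold change -0.97, adjusted p = 0.0492), in a fit that called 19.7% of genes. Of all genes tested, 37.2% had a lower log2 fold change than Myc in old islets and 4.00% in young islets. The interaction of age and status for Myc was 0.69 (SE 0.777, 95% interval -0.92 to 2.29, edgeR adjusted p = 0.844), so a difference between ages in the replication effect was not detected.

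Myc was at a higher mean level in old than in young cells of both states, with no call. In replicating cells it stood at 30.5 CPM in old and 12.8 CPM in young libraries, a log2 fold change of 1.25 (SE 0.549, 95% interval 0.11 to 2.39, edgeR adjusted p = 0.175, unadjusted p = 0.0328). Old replicative replicates 2 and 3 exceeded all young replicative libraries, while old replicative replicates 1 and 4 lay among them. The value was 1.56 and past the threshold without old replicative replicate 1 (edgeR adjusted p = 0.0475, 14.1% of genes called), and 0.87 without old replicative replicate 2.

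In quiescent cells Myc stood at 37.9 CPM in old and 25.6 CPM in young libraries, a log2 fold change of 0.56 (SE 0.546, 95% interval -0.57 to 1.69, edgeR adjusted p = 1.00). Leaving out old quiescent replicate 3 brought it to 0.17. From low to high, mean Myc in CPM went from young replicative through young quiescent and old replicative to old quiescent cells, and each neighbouring pair in that order overlapped. On the deposited log2 scale the middle groups change places, with means of 7.25 in old replicative and 7.32 in young quiescent libraries.

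**Figure D3:**
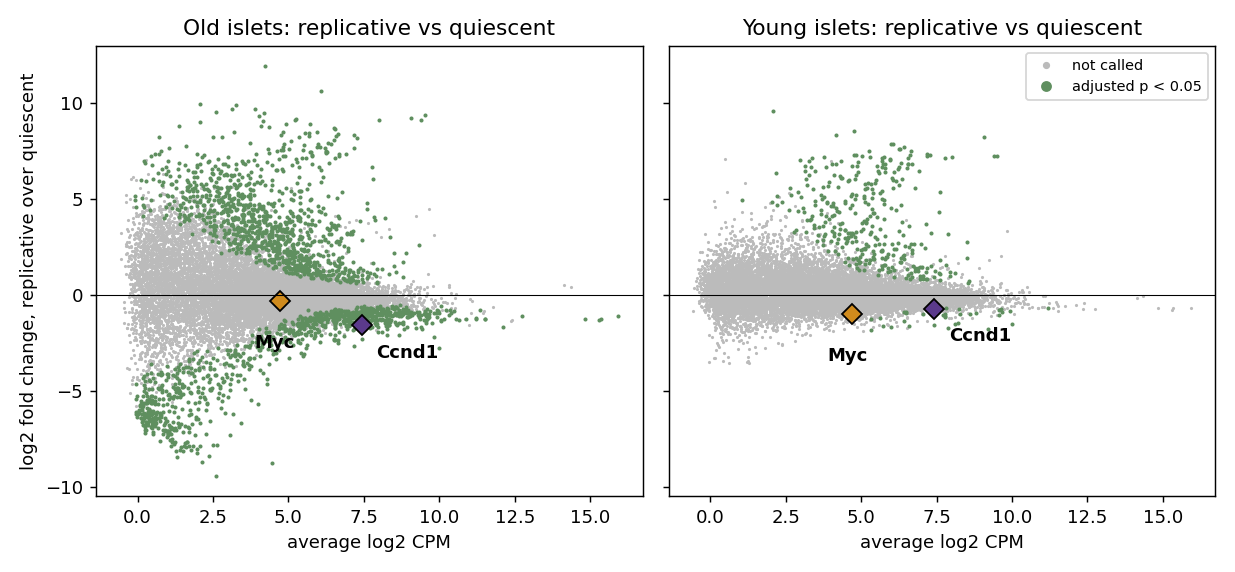
Log2 fold change of replicative over quiescent libraries (vertical axis) against average log2 CPM (horizontal axis) for all 14920 genes tested, in old (left) and young (right) islets. Green points passed an adjusted p of 0.05. Diamonds mark Ccnd1, at -1.58 in old and -0.71 in young islets, and Myc, at -0.31 and -0.997.

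The genes differed in how closely replicate libraries agreed. On the deposited log2 scale the SD of Ccnd1 was 0.76 in old replicative, 0.07 in old quiescent, 0.13 in young replicative and 0.27 in young quiescent libraries. The median gene had SDs of 1.55, 0.35, 0.76 and 0.39 in those groups, in the same order. Only 1.39% of genes varied less than Ccnd1 among young replicative libraries, and 3.08% among old quiescent ones. This description takes no account of read depth, and genes with more reads vary less.

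Myc varied more than the median gene among old quiescent libraries and lay nearer to it in the other groups. Its SD was 1.38 in old replicative, 0.61 in old quiescent, 0.92 in young replicative and 0.39 in young quiescent libraries, and 45.8%, 71.9%, 56.8% and 51.1% of genes varied less in those groups. Its highest library exceeded its lowest by 6.54-fold in old replicative, 2.59-fold in old quiescent, 5.31-fold in young replicative and 1.79-fold in young quiescent cells.

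The number of Myc reads per 100 Ccnd1 reads needs no scaling between libraries. It is not corrected for transcript length, so it compares libraries and not the levels of the genes. No test of it was planned, and it is given as a description. It was 9.11, 118, 58.0 and 8.75 in old replicative libraries, replicates 1 to 4. Old quiescent libraries held 9.77, 10.2, 23.96 and 10.8. Old replicative replicate 2, with 484 Myc and 411 Ccnd1 reads, was the only one of the 18 libraries with more reads from Myc than from Ccnd1.

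In young islets the ratio stayed below that of old replicative replicates 2 and 3 in every library. It was 14.9, 8.94, 8.17, 3.28 and 17.4 in young replicative libraries, against 19.1, 7.94, 9.25, 13.9 and 16.0 in young quiescent libraries. The groups overlapped, with medians of 8.94 in young replicative and 13.9 in young quiescent libraries. Except for old replicative replicates 2 and 3, every library in the series lay between 3.28 and 23.96.

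**Figure D4:**
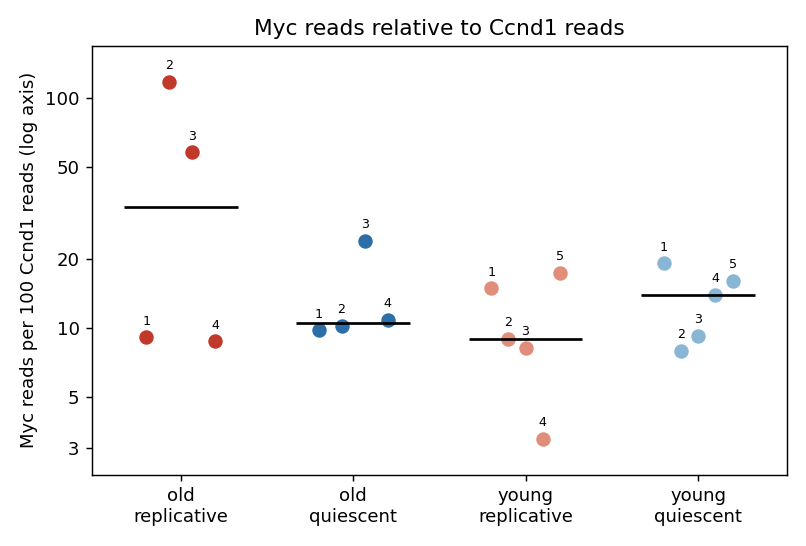
Myc reads per 100 Ccnd1 reads in each library (log axis), by group. Points are libraries with their replicate number and black lines are group medians. Old replicative replicates 2 and 3, at 118 and 58.0, stand above all other libraries, which lie at 23.96 or below.

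The make-up of the RNA also differed between replicating and quiescent cells. The 10 most abundant genes of the series took 16.3% ± 4.45 of counts in old replicative and 25.9% ± 1.69 in old quiescent libraries (SD, n = 4 each). They took 20.8% ± 1.05 in young replicative and 27.6% ± 1.92 in young quiescent libraries (SD, n = 5 each). Within the old replicative group this share ranked the libraries as Ccnd1 did. It was 10.3% in replicate 2, which had the least Ccnd1, then 15.7% in replicate 1, 18.5% in replicate 3 and 20.6% in replicate 4. In the other groups the share and Ccnd1 gave different orders. Young replicative shares ran only from 19.8% to 22.4%, and the library with the most Ccnd1 in that group, replicate 2, had the lowest share. How far Ccnd1 followed these genes was measured with a scaling chosen after seeing the data.

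Counted per 1000 reads of those 10 genes, Ccnd1 stood at 0.587 ± 0.139 in old replicative and 0.949 ± 0.126 in old quiescent libraries (SD, n = 4 each), with no overlap. With library sizes set by those genes the log2 fold change was -0.69 and passed (edgeR adjusted p = 0.0371), where 32.1% of genes were called. This scaling moved the median gene to 1.08 in old and 0.60 in young islets, and relative to the median gene Ccnd1 stood at -1.77 in old islets. In young islets the same measure was 0.638 ± 0.0979 in replicative and 0.708 ± 0.182 in quiescent libraries (SD, n = 5 each), with overlap, and the log2 fold change was -0.15 (edgeR adjusted p = 0.764), or -0.75 relative to the median gene. Myc under this scaling stood at 0.94 in old (edgeR adjusted p = 0.250) and -0.44 in young islets (edgeR adjusted p = 0.722), which is -0.14 and -1.04 relative to the median gene. Its difference between old and young replicating cells was 1.87 (edgeR adjusted p = 0.0476), where 10.1% of genes were called and the median gene stood at 0.42. Values relative to the median gene largely undo a change of library sizes by construction, so they are no separate check on the scaling.

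**Figure D5:**
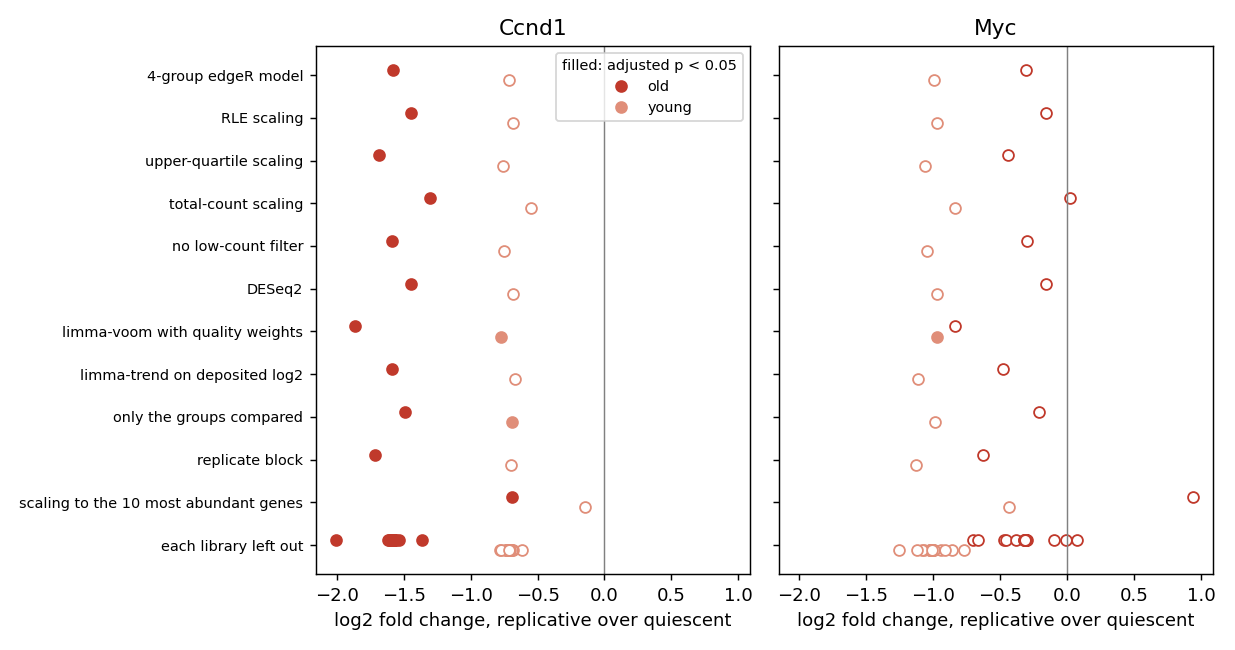
Log2 fold change of replicative over quiescent libraries for Ccnd1 (left) and Myc (right) under each processing setting (rows), in old (dark) and young (light) islets. Filled points passed an adjusted p of 0.05, and the lowest row holds 18 fits that each left out 1 library. Ccnd1 in old islets is filled in every row, between -2.01 and -0.69, while Myc in old islets lies on both sides of 0, the settings not being corrected for where they put the median gene.

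The genes whose levels most resembled each of the pair were sought over all 18 libraries, by Pearson r of log2(CPM + 1) among 11556 genes with an average log2 CPM of at least 2. These libraries fall into 4 groups, so r describes likeness of pattern and carries no p. The genes were picked for likeness in these same libraries. Their fold changes and p-values are therefore partly set by that choice and lend no support to those of the pair. For Ccnd1 the highest r, 0.948, belonged to ENSRNOG00000011460, with 464 ± 165 CPM in old replicative, 1279.5 ± 91.6 in old quiescent (SD, n = 4 each), 641 ± 99.9 in young replicative and 1052 ± 91.4 CPM in young quiescent libraries (SD, n = 5 each). It had a log2 fold change of -1.46 in old cells (edgeR adjusted p = 0.000139) and -0.71 in young cells (edgeR adjusted p = 0.0601). ENSRNOG00000014617 followed at r = 0.925, with a log2 fold change of -1.03 in old cells (edgeR adjusted p = 0.0123) and -0.64 in young cells (edgeR adjusted p = 0.258).

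For Myc the highest r was 0.908, with ENSRNOG00000021270. That gene stood at 28.0 ± 17.1 CPM in old replicative, 64.4 ± 22.5 in old quiescent (SD, n = 4 each), 23.4 ± 10.96 in young replicative and 37.0 ± 5.50 CPM in young quiescent libraries (SD, n = 5 each), and did not pass in old (log2 fold change -1.20, edgeR adjusted p = 0.0932) or young cells (-0.66, edgeR adjusted p = 0.834). ENSRNOG00000001623 followed at r = 0.884, with log2 fold changes of -0.20 in old and -0.23 in young cells (edgeR adjusted p = 0.752 and 1.00). The files give no names for these 4 genes.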

How the data were processed

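RNA came from sorted cells by a fixed-tissue kit, with stranded total RNA libraries, per the labels. The deposited count table holds raw read counts per rat Ensembl gene, which the authors did not normalize, and a second deposited table holds log2 values. The log2 values equal log2(count / size factor + 1), with median-of-ratios size factors (largest difference 5.2e-14). The submitters' processing notes name STAR, DESeq2 and the build rn6; their roles and versions, the counting program and the strand setting are not stated there or in the labels.

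Counts were fitted in R 4.3.3 with edgeR 4.0.16: filterByExpr by group (minimum count 10, total 15; 14920 of 27654 genes kept), TMM scaling on the kept genes, 1 model with 4 group means, robust quasi-likelihood F tests, and Benjamini-Hochberg adjustment over all genes with a threshold of 0.05. The procedure was run on simulated data in which each gene's spread was capped and was the same in all groups. In the real data the replicative libraries varied more than the quiescent ones. That run therefore does not show how the tests behave at such large and unequal spreads. Standard errors are the log2 fold change over the square root of F. P-values measure the spread between libraries of pooled rats. The replicating and quiescent libraries of a batch were treated as independent.

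The pair of genes and the lists of related genes were chosen with earlier results of these data known. The lists (cell cycle, Myc network, signalling and cell type markers) and the relatives of the pair were not run, because 0 of the identifiers match the 47357 genes of the reference table. The rule for named genes took the pair and the genes most like each, of which 2 identifiers per gene are printed. Alternatives were RLE, upper-quartile and total-count scaling, no filter, DESeq2 1.42.0, limma 3.58.1 (voom with quality weights, trend on the log2 values), the groups compared alone, a replicate block and each library left out. Scaling to the 10 most abundant genes was added after seeing the data.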

Additional observations from a re-analysis of the deposited data

How the results depend on the processing

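Ccnd1 in old islets passed the threshold under all 28 alternatives (log2 fold change -2.01 to -0.69; highest adjusted p 0.0385, on the old libraries alone); without single libraries it ran from -2.01 to -1.36. Ccnd1 in young islets was negative in all 28 and passed in 4: limma-voom (-0.77), the young libraries alone (-0.69) and without old replicative replicate 2 or 4; without single libraries it ran from -0.78 to -0.62. Without single libraries Ccnd1 ran from -0.82 to -0.18 between replicating cells of the ages, from 0.38 to 0.55 between quiescent cells, and from -1.28 to -0.64 for the interaction. Limma-voom called the quiescent difference (0.42). Myc in old islets turned to 0.0219 under total-count scaling, 0.94 under scaling to the 10 most abundant genes and 0.0705 without old quiescent replicate 3 (range without single libraries -0.71 to 0.0705). Both scalings change library sizes alone: they put the median gene at 0.30 and 1.08, and relative to it Myc stood at -0.28 and -0.14. Without old quiescent replicate 3 the cause was not tested. Myc ran from -1.26 to -0.77 in young islets without single libraries (-0.97 and called in limma-voom), from 0.87 to 1.56 between replicating cells of the ages (1.87 and called under scaling to the 10 most abundant genes), from 0.17 to 0.72 between quiescent cells and from 0.31 to 1.08 for the interaction.

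In old islets 2053 genes were called, against 3183 in DESeq2, 1021 in limma-voom and 540 on the old libraries alone, and 1134 to 2916 without single libraries. They split into 1068 higher and 985 lower, against 1209 and 799 under RLE, 937 and 1246 under upper-quartile and 1493 and 597 under total-count scaling. In young islets 368 were called, against 604 in DESeq2, 2935 in limma-voom and 786 on the young libraries alone, and 293 to 552 without single libraries. Between replicating cells of the ages 1069 were called, against 2251 in DESeq2, 190 in limma-voom and 62 on those libraries alone, and 644 to 2211 without single libraries. They split into 491 higher and 578 lower, against 373 and 813 under upper-quartile scaling. Between quiescent cells 4 were called, against 8 with no filter, 67 in DESeq2, 1571 in limma-voom and 258 on those libraries alone, and 0 to 14 without single libraries. For the interaction 4 were called, against 1 with no filter, 296 in DESeq2, 2 in limma-voom, 1 in limma-trend and 11 with the replicate block, and 0 to 231 without single libraries. The count of 0 in edgeR between quiescent cells came without young quiescent replicate 2 or 3, with 546 and 591 genes at an unadjusted p under 0.05, and that for the interaction in 9 fits, with 1206 to 1395 such genes. The median gene in young islets was 0.20 under total-count scaling. That in old islets stood at 0.14 under RLE and -0.10 under upper-quartile scaling, -0.33 in limma-voom, -0.35 in limma-trend and -0.43 with the replicate block, and relative to it Ccnd1 ran from -1.59 to -1.23.

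The replicate numbers were not taken as pairs. Deviations of same-numbered libraries correlated at 0.0714 to 0.506, over 0.1 in 7 of 9 pairs, and 8 of 9 replicative libraries matched their own number best, a hint from the data. With the number as a block, Ccnd1 stood at -1.71 in old (edgeR adjusted p = 0.000153) and -0.70 in young islets (edgeR adjusted p = 0.0945) and Myc at -0.63 and -1.13 (edgeR adjusted p = 0.528 and 0.549), with 1957 genes called in old and 400 in young islets.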
